A study of Homo sapiens with 12 samples.

Results

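The genes of the proteasome were examined in peak lists of acetylated RNA from HaCaT, an immortal keratinocyte line of human origin. Members were all genes whose listed name is PSM, a letter from A to G and a number, apart from 2 that were left out beforehand. The 6 lists held a peak on 24 such genes, out of 10870 genes that any list names. Those 24 genes carried 86 of the 61804 peaks. The RefSeq table of GRCh38.p14 holds 46 protein-coding genes that fit the same names, so 22 had no peak in these lists. Cells had been given NAT10 overexpression plasmids, with 3 replicates, or an empty vector, also with 3 replicates. An immunoprecipitated (IP) and an input library were made from each replicate, and each replicate gave 1 list. The study asked which genes go with NAT10, the enzyme that writes N4-acetylcytidine (ac4C) on RNA. The labels do not say how long the plasmids were present, what drove NAT10 in them or whether replicates were separate cultures.

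The proteasome is the barrel-shaped protease that degrades proteins tagged with ubiquitin. Its core particle is built from the alpha subunits (PSMA genes), which form the outer rings and the gate, and the beta subunits (PSMB genes), which form the inner rings and hold the cutting sites. A regulatory particle caps the core. Its base holds a ring of ATPases (PSMC genes) that unfold and thread substrates. The base and lid hold further subunits (PSMD genes), some of which bind ubiquitin chains or cut them off. Other caps and partners open the core (PSME genes) or bind and inhibit it (PSMF1), and dedicated chaperones (PSMG genes) assemble the alpha ring. ac4C is read here by antibody pull-down, and a peak is a stretch where IP reads stand above background. A peak list therefore records enrichment on an mRNA and does not measure the amount of that mRNA. How far the amount affects which peaks are listed was not tested.

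The targeted gene matched the labels, with 14, 14 and 15 peaks on NAT10 in overexpression replicates 1, 2 and 3, against 1, 2 and 2 in vector replicates 1, 2 and 3. The lists differ greatly in length. They held 12157, 12119 and 3105 peaks in overexpression replicates 1, 2 and 3, and 4324, 19261 and 10838 in vector replicates 1, 2 and 3. Vector replicate 2 is the longest and overexpression replicate 3 the shortest, and the main counts by gene are also given without them. Read depth behind the lists is unknown, and the lowest false discovery rate of any peak, read as percent, was 29.28%, in vector replicate 2. The lowest was 57.75%, 52.88% and 100% in overexpression replicates 1, 2 and 3, and 100% and 76.31% in vector replicates 1 and 3. Every peak of overexpression replicate 3 and vector replicate 1 thus stood at 100%. Of 16 keratinocyte markers, 14 had a peak in some list, as did 3 of 6 melanocyte, 2 of 6 fibroblast, 1 of 5 immune and 3 of 5 endothelial markers. A marker's peak does not measure its expression.

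Fewer proteasome genes carried a peak in the overexpression lists than in the vector lists, but the ranges of the counts overlapped. Proteasome genes with a peak numbered 8, 10 and 3 in overexpression replicates 1, 2 and 3, against 8, 24 and 13 in vector replicates 1, 2 and 3 (7 ± 3.61 against 15 ± 8.19, SD, n = 3 per group). The difference of −8 genes was −3.5 without vector replicate 2, and −1.5 without overexpression replicate 3 as well. With the 3105 peaks of highest score kept from each list it was −2.33. All 24 genes had a peak in vector replicate 2, and 7 of them in no other list. Over all genes with a peak, 72.9% had one in vector replicate 2 and 12.7% only there. These are numbers of genes with an IP peak in bulk RNA, in which fewer cells of a kind and less RNA per cell cannot be told apart, and no transcript amount was measured. Set against the length of each list, the proteasome genes made up 0.138%, 0.168% and 0.130% of the genes with a peak in overexpression replicates 1, 2 and 3. The corresponding shares were 0.255%, 0.303% and 0.218% in vector replicates 1, 2 and 3. Every overexpression list lay below every vector list on this share (0.145% ± 0.0201 against 0.259% ± 0.0425, SD, n = 3 per group). No p-value is given for sums over the genes, since they were chosen with earlier results of these lists known.

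**Figure D1:**
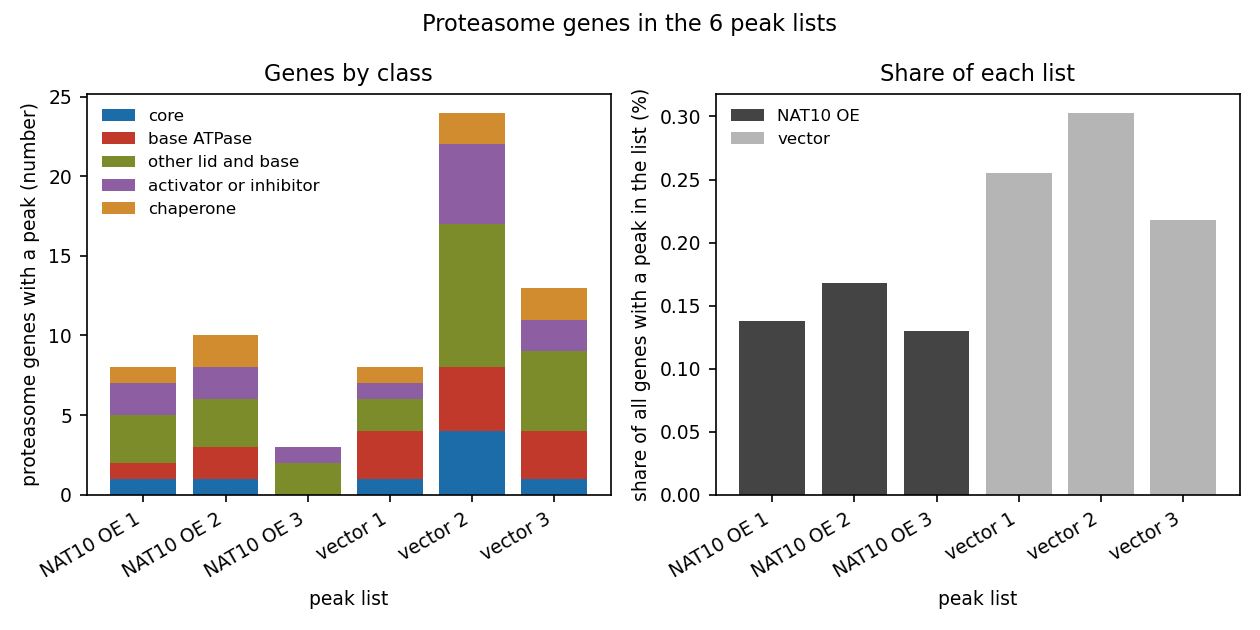
Left, stacked bars give the number of proteasome genes with a peak in each list (vertical axis, number of genes), by class. Right, bars give those genes as a share of all genes with a peak in the list (vertical axis, percent). NAT10 OE is NAT10 overexpression and the number is the replicate, 1 bar per list with no error bar. The counts of 8, 10 and 3 overlap those of 8, 24 and 13 in vector lists, while all 3 overexpression shares lie below all 3 vector shares.

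By gene, 2 of the 24 had a peak in more overexpression than vector lists, 18 in more vector than overexpression lists and 4 were even. Over all 10870 genes the same rules took 25.6%, 46.3% and 28.1%. The 2 genes that leaned to overexpression were PSMD1 and PSME4, each with a peak in 2 overexpression lists and 1 vector list. The count of 18 depended on vector replicate 2. Without it 17 genes had a peak, 5 of them in a larger share of overexpression lists and 11 in a larger share of vector lists, while over all genes these rules then took 48.8% and 43.7%. Without both vector replicate 2 and overexpression replicate 3, 4 of 16 genes leaned to overexpression, 6 to vector and 6 to neither, while 44.4% of all genes leaned to overexpression and 20.9% to vector. No single gene can pass a test here. The smallest two-sided p of 3 lists against 3 is 0.1, by Fisher's exact test on presence and by the exact permutation test on numbers of peaks, and the smallest adjusted p over the 10870 genes was 1 in both. No gene had an unadjusted p under 0.05 by either test.

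**Figure D2:**
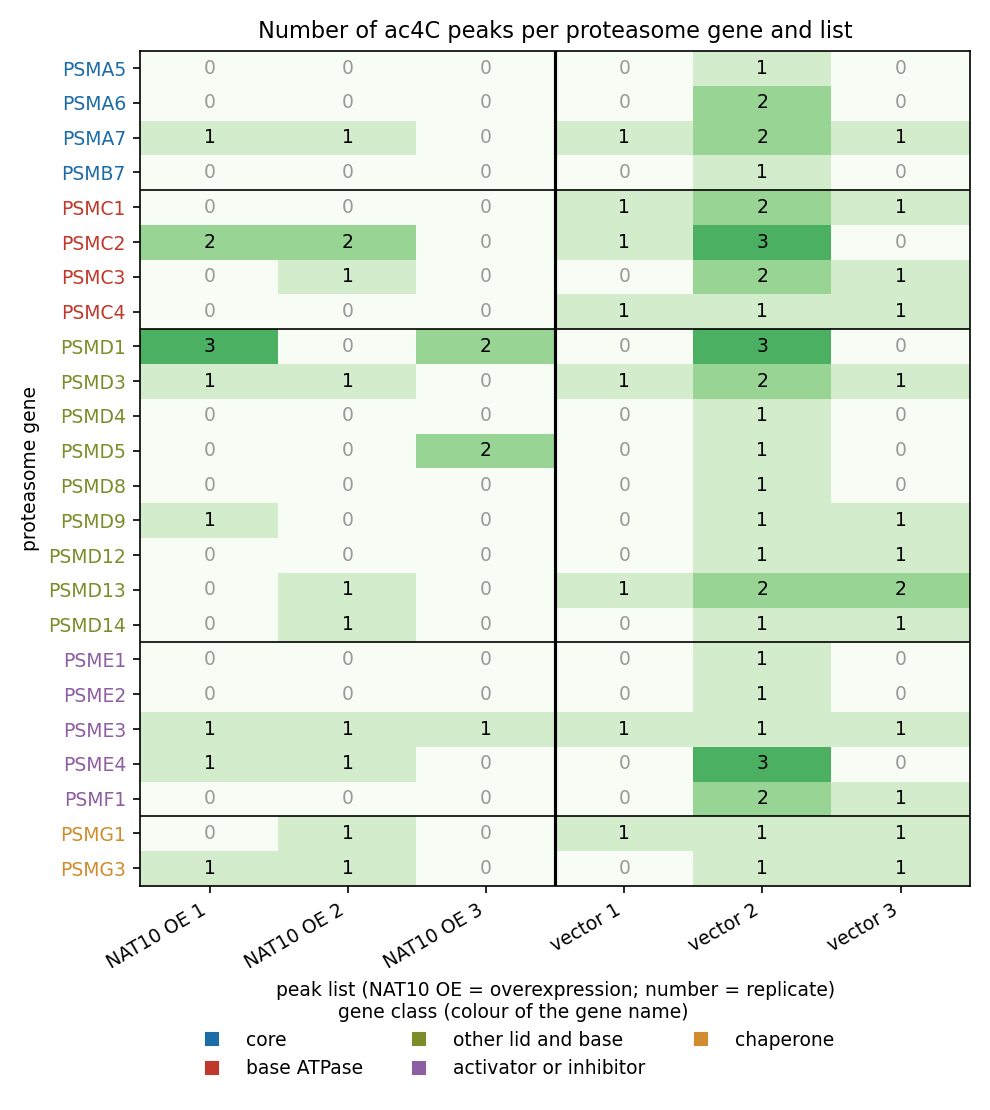
Each cell gives the number of peaks on a proteasome gene (rows, coloured by class) in a list (columns; NAT10 OE is NAT10 overexpression and the number is the replicate). The column of vector replicate 2 has no 0, that of overexpression replicate 3 has entries on 3 genes, and PSME3 is the only row with a peak in all 6 lists.

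The core particle was the class with the lowest share of genes carrying a peak, 23.5%. Of its 17 genes, 4 had one, PSMA5, PSMA6, PSMA7 and PSMB7, against 20 of the 29 family genes outside the core. For comparison, 52.6% of all 20056 protein-coding RefSeq genes had a peak in some list. The core genes without a peak were PSMA1, PSMA2, PSMA3, PSMA4, PSMA8, PSMB1, PSMB2, PSMB3, PSMB4, PSMB5, PSMB6, PSMB10 and PSMB11. They include the catalytic subunits PSMB5 and PSMB6, and PSMB7 is the catalytic subunit with a peak. Short genes carried peaks less often in these lists, since 28.9% of protein-coding genes that span under 10 kb had one, against 62.1% of longer genes. Of the core genes, 6 span under 10 kb. Among the 11 core genes of 10 kb or more, 3 had a peak. The part of gene length in the low count of the core was not tested further. Whether all 17 core genes are expressed in these cells was not measured.

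PSMA7, an alpha-ring subunit, was the one core gene with peaks in more than 1 list. It had 1, 1 and 0 peaks with NAT10 overexpression (replicates 1, 2 and 3), against 1, 2 and 1 in vector replicates 1, 2 and 3. In 5 lists the peak had the same ends, chr20:62140818-62140944 (GRCh38), inside the span of the gene. The authors' fold of IP over background there was 4.17 and 6.96 in overexpression replicates 1 and 2, and 5.30, 5.44 and 5.13 in vector replicates 1, 2 and 3. The groups overlap in this fold. The peaks of PSMA5, PSMA6 and PSMB7 were in vector replicate 2 alone, with folds of 2.27, 4.80 and 4.30, and 3.54. The 2 PSMA6 peaks also lie in the span of the read-through gene PRORP-PSMA6, and cannot be assigned to either.

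The base ATPases held both genes with a peak in no overexpression list and every vector list, PSMC1 and PSMC4. That pattern was met by 1.09% of all genes with a peak, and by no proteasome gene in the opposite direction (0.267% of all genes). Without overexpression replicate 2, or without vector replicate 1, 4 proteasome genes had a peak in no remaining overexpression list and every remaining vector list. These are looser rules to which the 1.09% does not apply, and the share of all genes that met them was not computed. By numbers of peaks, PSMC1 and PSMC4 were also the 2 proteasome genes with more in every vector list than in any overexpression list (1.39% of all genes), and 0 had the reverse (0.386%). ATPase genes with a peak numbered 1, 2 and 0 in overexpression replicates 1, 2 and 3, against 3, 4 and 3 in vector replicates 1, 2 and 3. Over all genes, the genes with a peak numbered 5798, 5949 and 2306 against 3137, 7919 and 5956, in the same order. Those counts overlap, as do those of every other proteasome class. The groups do not overlap in the ATPase class, where the counts rest on few genes. Without vector replicate 2 and overexpression replicate 3, 1 of its 4 genes with a peak leaned to overexpression, 2 to vector and 1 to neither. In that setting 44.4% of all genes leaned to overexpression and 20.9% to vector. Of the 6 ATPase genes, PSMC1, PSMC2, PSMC3 and PSMC4 had a peak, and PSMC5 and PSMC6 had none.

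PSMC1 had 0, 0 and 0 peaks with NAT10 overexpression (replicates 1, 2 and 3), against 1, 2 and 1 in vector replicates 1, 2 and 3 (exact permutation p = 0.1, adjusted p = 1). Its 3 vector lists share a peak over the first bases of the gene. All 3 end at base 90256600 of chromosome 14, and the stretch common to them is chr14:90256567-90256600. The fold was 14.7, 15.3 and 8.99 in vector replicates 1, 2 and 3, which put it above 91.4%, 86.6% and 74.8% of the peaks of those lists. It was the one proteasome position found in 0 overexpression lists and 3 vector lists.

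PSMC4 had 0, 0 and 0 peaks with NAT10 overexpression (replicates 1, 2 and 3), against 1, 1 and 1 in vector replicates 1, 2 and 3 (exact permutation p = 0.1, adjusted p = 1). Here the vector lists did not all mark the same place. The peaks of vector replicates 1 and 3 had the ends chr19:39974294-39974440 and folds of 4.82 and 4.84. That of vector replicate 2 lay further into the gene, at chr19:39981192-39981441, with a fold of 5.75.

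PSMC2 and PSMC3 carried peaks in both groups. PSMC2 had 2, 2 and 0 peaks with NAT10 overexpression (replicates 1, 2 and 3), against 1, 3 and 0 in vector replicates 1, 2 and 3. These fell on 4 positions, each found in 1 overexpression and 1 vector list, with folds of 3.44 to 4.49 in overexpression and 3.47 to 6.56 in vector lists. All lie also within the span of SLC26A5, and the lists give no strand, so these peaks cannot be told apart between the genes. PSMC3 had 0, 1 and 0 peaks with NAT10 overexpression (replicates 1, 2 and 3), against 0, 2 and 1 in vector replicates 1, 2 and 3. A weak position, chr11:47420264-47420409, had a fold of 2.48 in overexpression replicate 2 and of 3.56 and 2.63 in vector replicates 2 and 3. A second peak of vector replicate 2, at the gene start, had a fold of 10.3.

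The class of other lid and base genes (PSMD), which includes the base chaperones PSMD5 and PSMD9, had the most peaks, 33 on 9 of 14 genes. Genes with a peak numbered 3, 3 and 2 in overexpression replicates 1, 2 and 3, against 2, 9 and 5 in vector replicates 1, 2 and 3, and the groups overlap. PSMD2, PSMD6, PSMD7, PSMD10 and PSMD11 had none. PSMD3, a scaffold subunit of the lid, had 1, 1 and 0 peaks with NAT10 overexpression (replicates 1, 2 and 3), against 1, 2 and 1 in vector replicates 1, 2 and 3. Its recurrent peak kept the ends chr17:39980797-39981190 in 5 lists, across the gene start. The fold was 5.09 and 4 in overexpression replicates 1 and 2, and 4.25, 4.68 and 6.13 in vector replicates 1, 2 and 3. Presence and fold of this peak thus overlapped between the groups.

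PSMD13 and PSMD12, both lid subunits, had at least 2 more vector than overexpression lists, a rule met by 6 of the 24 genes and by 9.48% of all genes with a peak. The others were PSMC1, PSMC4, PSMF1 and PSMG1. In the opposite direction the rule took 0 proteasome genes and 3.79% of all genes. PSMD13 had 0, 1 and 0 peaks with NAT10 overexpression (replicates 1, 2 and 3), against 1, 2 and 2 in vector replicates 1, 2 and 3 (exact permutation p = 0.2, adjusted p = 1). The position chr11:238998-239076 had a fold of 5.15 in overexpression replicate 2 and of 5.17, 9.10 and 8.64 in vector replicates 1, 2 and 3. A second position at the gene start was found in vector replicates 2 and 3, where the span of SIRT3 also lies. PSMD12 had no overexpression peak and 1 peak each in vector replicates 2 and 3, at 2 places far apart, with folds of 4.05 and 7.82.

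Several lid and base genes carried peaks in both groups but in different places. PSMD9, an assembly chaperone of the base, had a peak in overexpression replicate 1 far inside the gene, at chr12:121917637-121917940, with a fold of 6.6. In vector replicates 2 and 3 the peak was at the gene start, with the ends chr12:121888731-121888994 and folds of 16.5 and 4.86. PSMD1, the large scaffold of the base, had 3, 0 and 2 peaks with NAT10 overexpression (replicates 1, 2 and 3), against 0, 3 and 0 in vector replicates 1, 2 and 3. None of the overexpression peaks overlapped a vector peak. Overexpression replicates 1 and 3 shared 115 bases at chr2:231138737-231138851, with folds of 4.67 and 3.34, and this was the one proteasome position found in at least 2 lists of the overexpression group alone.

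PSMD5, another base chaperone, had 2 peaks in overexpression replicate 3, with folds of 3.29 and 5.92, and a gene-start peak in vector replicate 2 with a fold of 5.16. PSMD14, the deubiquitinase of the lid, had 1 peak in overexpression replicate 2 and 1 each in vector replicates 2 and 3, at 3 separate places and with folds of 3.04, 4.43 and 2.74. For these genes, counts of lists alone hide that the positions differ. PSMD4, the ubiquitin receptor, and PSMD8 had a peak in vector replicate 2 alone, with folds of 4.81 and 5.23.

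All 5 genes of activators and the inhibitor had a peak, at 2, 2 and 1 genes in overexpression replicates 1, 2 and 3, against 1, 5 and 2 in vector replicates 1, 2 and 3. PSME3, which encodes the nuclear activator PA28-gamma, was the one proteasome gene with a peak in all 6 lists, as 6.23% of all genes with a peak had. Every list began this peak at the same base, 42833411 of chromosome 17, just inside the gene start, and the ends ran from 42833756 to 42834376. The fold was 7.53, 8.29 and 2.48 in overexpression replicates 1, 2 and 3, against 9.62, 4.99 and 10.7 in vector replicates 1, 2 and 3. The value in overexpression replicate 3 was the lowest of the 6, and the groups overlap.

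PSME4, the ATP-independent activator PA200, had 1, 1 and 0 peaks with NAT10 overexpression (replicates 1, 2 and 3), against 0, 3 and 0 in vector replicates 1, 2 and 3. Each overexpression peak overlapped one of vector replicate 2. The folds were 3.20 and 4.19 in overexpression replicates 1 and 2 and 4.48 and 8.46 at the same places in vector replicate 2. PSMF1, the inhibitor PI31, had no overexpression peak, 2 peaks in vector replicate 2 and 1 in vector replicate 3. The last of these was 10 bases long, with a fold of 13.5. PSME1 and PSME2, the subunits of the interferon-inducible activator PA28, had 1 weak peak each in vector replicate 2, with folds of 2.06 and 2.78. That listed for PSME2, at chr14:24146917-24147191, lies outside the RefSeq span of PSME2 and within that of RNF31.

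Of the 4 chaperones of the alpha ring, PSMG1 and PSMG3 had peaks and PSMG2 and PSMG4 none. PSMG1 had 0, 1 and 0 peaks with NAT10 overexpression (replicates 1, 2 and 3), against 1, 1 and 1 in vector replicates 1, 2 and 3. All lie across the gene start and have base 39183252 of chromosome 21 as their lower end. The fold was 7.15 in overexpression replicate 2, and 6.37, 11.3 and 7.15 in vector replicates 1, 2 and 3. PSMG3 had 1, 1 and 0 peaks with NAT10 overexpression (replicates 1, 2 and 3), against 0, 1 and 1 in vector replicates 1, 2 and 3. These share base 1569124 of chromosome 7 as their lower end and had folds of 3.73 and 5.45 in overexpression replicates 1 and 2, and 4.70 and 3.37 in vector replicates 2 and 3. PSMG3 showed no lean to either group.

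Some peaks of the proteasome genes returned at the same place in several lists, but most positions were in a single list. The 86 peaks fell on 50 positions, where peaks of 1 gene that overlap by at least 1 base count as 1 position. Of these, 18 (36%) were found in at least 2 lists and 32 in 1 list. By the same rule 32.5% of the 38634 positions of all genes were found in at least 2 lists. Among the 18, 13 had peaks of both groups, 1 of overexpression lists alone and 4 of vector lists alone. This split was not computed over the positions of all genes, so these counts have no background. At least 1 end was identical at 17 of the 18 and both ends at 9. Identical ends were not particular to these genes. Over all genes, peaks with both ends identical between a pair of lists made up 5.06% to 50.8% of the shorter list. Of the 86 peaks, 15, on 6 genes, also overlap the span of another RefSeq gene.

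**Figure D3:**
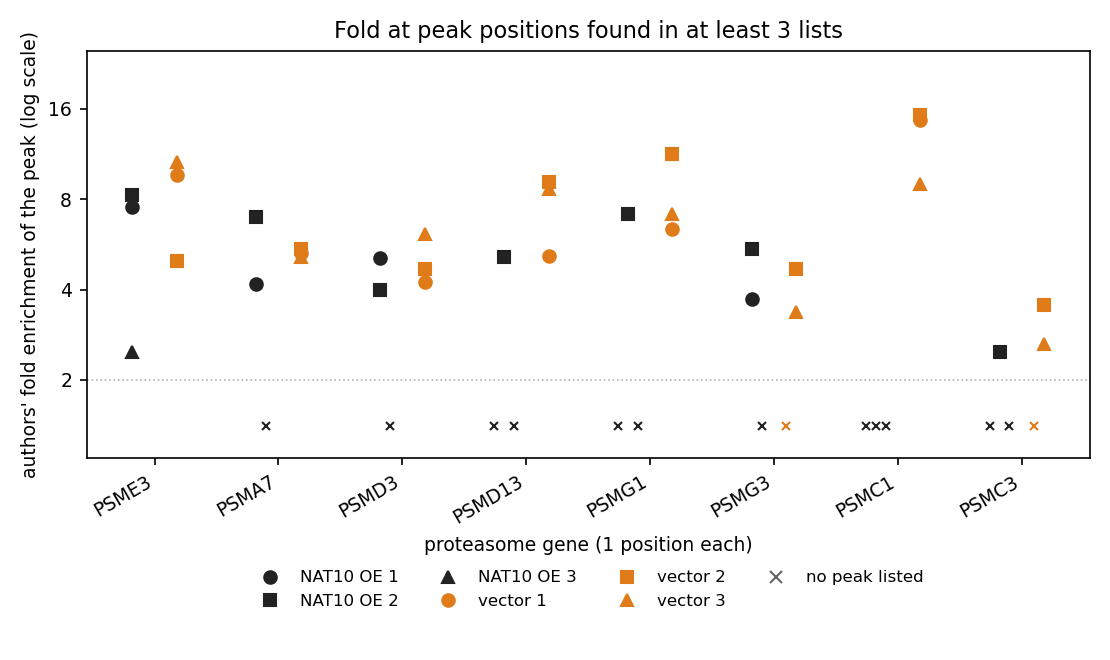
Points give the authors' fold enrichment (vertical axis, log scale) at the 8 proteasome positions found in at least 3 lists, 1 position per gene. Dark symbols are NAT10 overexpression (NAT10 OE) lists and orange symbols vector lists, the shape is the replicate, crosses mark lists with no peak there, and the dotted line is the lowest fold in any list, 2. Folds of the groups overlap for PSME3, PSMA7, PSMD3, PSMG1 and PSMG3, and PSMC1 has vector points only.

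Proteasome peaks were weaker than most in the same lists. Of the 86, 65 had a fold below the median of their list, and 22 of 27 were below it in overexpression lists, against 43 of 59 in vector lists. The median fold of the proteasome peaks was 4.17, 4.19 and 3.29 in overexpression replicates 1, 2 and 3, where the median of all peaks was 6.3, 6.39 and 7.2. In vector replicates 1, 2 and 3 it was 5.24, 4.68 and 5.78, where that of all peaks was 7.22, 6.82 and 6.59. The 3 overexpression medians of the proteasome peaks lie below the 3 vector medians (3.88 ± 0.514 against 5.23 ± 0.550, SD, n = 3 per group). By the authors' score, which is −10 times log10 of the p-value, 48 of the 86 exceeded the median of their list. Fold and score are values of a peak within its own list and were not scaled between lists.

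Many proteasome peaks sat at the gene start. RefSeq gene starts were at hand for 20 of the 24 genes, and not for PSMA7, PSMB7, PSMD4 and PSMG3. Of 74 peaks on those 20 genes, 27 (36.5%) overlapped the window from 250 bases before to 50 bases after the gene start, compared with 14.9% of all 50129 peaks that could be placed. The share was above that of all peaks in each list. In overexpression replicates 1, 2 and 3 it was 22.2%, 33.3% and 20% (2 of 9, 3 of 9 and 1 of 5 peaks). All peaks there had 13.3%, 14.8% and 12.2%. In vector replicates 1, 2 and 3 it was 57.1%, 31.2% and 58.3% (4 of 7, 10 of 32 and 7 of 12 peaks). All peaks there had 28.7%, 10.003% and 20.8%. Most of these shares rest on few peaks, and a place found in several lists counts once in each. By position, 11 of the 45 with a known place were in the window, and this was not computed over all genes. With the window widened to 500 bases after the start, the shares were 41.9% of proteasome and 20.4% of all peaks. The proteasome peaks at gene starts had a median fold of 7.15 and those elsewhere 4.30. Over all genes these medians were 7.63 and 6.39.

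Gene-start peaks were found on fewer proteasome genes in overexpression than in vector lists. They marked 2, 3 and 1 genes in overexpression replicates 1, 2 and 3, against 4, 10 and 7 in vector replicates 1, 2 and 3, and these counts do not overlap. Over all genes, gene-start peaks marked 1266, 1418 and 304 genes in overexpression lists and 998, 1531 and 1811 in vector lists, which overlap. Of 11 proteasome genes with such a peak, 3 had one in any overexpression list, PSMD3, PSME3 and PSMG1 (61.7% of all genes with a gene-start peak). The other 8, PSMC1, PSMC3, PSMD1, PSMD5, PSMD9, PSMD12, PSMD13 and PSME1, had one in vector lists alone (38.3% of all such genes). By lists, 10 of the 11 genes had a gene-start peak in more vector lists and PSME3 in equally many, while 55.7% of all 3467 genes with a gene-start peak had it in more vector lists. Without vector replicate 2, 6 of 7 proteasome genes and 59.4% of all such genes leaned to vector. Without both vector replicate 2 and overexpression replicate 3, 5 of 7 and 38.7% did, and no proteasome gene leaned to overexpression in any of these settings.

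Bases at the gene start are shown for the 6 genes whose gene-start peak was in at least 2 lists, since these are the stretches that returned between lists. Of these, PSME3 and PSMC1 met the rule set for printing sequence, and the others were added after their values were seen. Each run is 30 bases of RefSeq sequence (GRCh38.p14), 5′ to 3′ on the gene's strand, common to all peaks of that gene at its start. Capitals mark the cytosines of CNNCNNCNNC, 4 cytosines spaced by 3 bases, a form of the repeat described for NAT10 sites. In order, the runs are at chr17:42833411-42833440 on the plus strand, chr17:39980807-39980836 on the plus strand, chr21:39183422-39183451 on the minus strand, chr14:90256567-90256596 on the plus strand, chr12:121888790-121888819 on the plus strand and chr11:236976-237005 on the plus strand. PSME3, PSMD3 and PSMG1 had these peaks in both groups and the others in vector lists alone.
PSME3: gagcggcgaaagccgggagggcgagcgaga
PSMD3: agaaggcccagcgccgggaaggggtttgca
PSMG1: gtctcgcgcaagccggcgtgcggtcccgcg
PSMC1: CggCagCggCagCtcaagtggccaaggcaa
PSMD9: acggtcgactggggcgtcgtccctagcccg
PSMD13: gagcatttccggcagccatccccgcggtgc

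These runs are rich in G and C, at 66.7% to 80% of their bases, and PSMC1 alone holds the motif, with 2 overlapping matches. Over the 50 bases after the start, CNNCNNCNNC was found on the sense strand in 2 of the 11 proteasome genes with a gene-start peak (18.2%), against 48.2% of all 3467 genes with a gene-start peak and 31.2% of all 27305 genes in the table. On the opposite strand it was found in 5 of the 11 (45.5%), against 65.8% and 40.2%. The median GC content of those 50 bases was 68% both in these 11 genes and in all genes with a gene-start peak, and 60% in all genes of the table. A match is a run of letters and not a mapped acetylation site.

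Beyond the subunits, the list of proteasome regulators and suppliers of ubiquitin included shuttle factors, the segregase VCP and its cofactors, ubiquitin-activating enzymes and the transcription factors of proteasome genes. Of its 35 genes, 27 had a peak, of which 3 (11.1%) leaned to overexpression lists, 16 (59.3%) to vector lists and 8 to neither, while 25.6% and 46.3% of all genes with a peak leaned to overexpression and to vector. Without vector replicate 2 and overexpression replicate 3, 8 of 25 leaned to overexpression and 7 to vector. Over all genes, 44.4% leaned to overexpression and 20.9% to vector in that setting. Genes of the list with a peak numbered 17, 17 and 3 in overexpression replicates 1, 2 and 3. In vector replicates 1, 2 and 3 they numbered 11, 22 and 21. UFD1, a VCP cofactor, was the one with a peak in 0 overexpression and 3 vector lists, with folds of 3.21, 3.71 and 5.82 in vector replicates 1, 2 and 3. The VCP adaptor FAF2 and UCHL5, a deubiquitinase of the regulatory particle, each had a peak in 1 overexpression and 3 vector lists, and UBA1, the main ubiquitin-activating enzyme, in 0 and 2. UBQLN2, a shuttle factor, had the opposite pattern, with a peak in 2 overexpression lists and 0 vector lists. Its folds were 4.26 and 2.32 in overexpression replicates 1 and 3. Over all genes with a peak, 9.48% had at least 2 more vector lists and 3.79% at least 2 more overexpression lists. NFE2L1, named after its values were seen, is the transcription factor that raises proteasome gene expression when the proteasome is inhibited. It had a peak in 2 overexpression lists and 1 vector list. NFE2L2, another transcription factor of this list, went the other way, with a peak in 2 overexpression lists and 3 vector lists. Neither reached a difference of 2 lists. None of these genes passed the test over all genes, as for the subunits.

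Other gene families were set beside the proteasome by the same counts. Of 45 ubiquitin-specific protease (USP) genes with a peak, 8 (17.8%) had it in more overexpression lists and 25 (55.6%) in more vector lists. Of 32 genes of the respiratory chain and ATP synthase, 2 (6.25%) had it in more overexpression lists and 27 (84.4%) in more vector lists. For the 24 proteasome genes these shares were 8.33% and 75%, and for all genes with a peak 25.6% and 46.3%. Vector replicate 2 held a peak on all 24 proteasome genes, against 93.3% of the USP genes and 81.2% of the respiratory genes. Without vector replicate 2 and overexpression replicate 3, 42.5% of 40 USP genes leaned to overexpression and 17.5% to vector, and 9.09% of 22 respiratory genes leaned to overexpression and 68.2% to vector. In that setting the shares were 25% and 37.5% for 16 proteasome genes, and 44.4% and 20.9% for all genes. No test was made of the differences between these groups of genes.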

How the data were processed

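The deposited tables are 6 peak lists, 1 per replicate, not pooled. The submitters' processing notes name, as labels with no stated role, FastQC, cutadapt (1.9.3), HISAT2 (2.0.4) and the build GRCh38. Peak names carry the word MACS, and the caller's version is not stated in what was used here. The authors' columns, per the file headers, are a score (−10 times log10 of the p-value), a fold (a ratio over background) and a false discovery rate, which the values, up to 100, led to be read as percent. In the deposited lists the lowest score was 50 and the lowest fold 2. Emptied lines were skipped, 3 in vector replicate 2 and 2 in overexpression replicate 2. Starts are printed counting from 1.

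Peaks were joined to genes by the listed name. Spans, starts and sequences are RefSeq's (GRCh38.p14), and all 24 genes matched by identifier. The lists hold no strand, so positions were joined without the planned condition on strand. Presence was tested by Fisher's exact test and numbers of peaks by two-sided exact permutation over 20 splits. Both were adjusted by Benjamini-Hochberg over 10870 genes, with scipy 1.17.1 under python 3.11.15. Both were run on simulated presence, where genes set to 0 against 3 lists gave the fixed smallest p of 0.1. Numbers of peaks were not simulated. The rule gave values in every list to genes found in 3 lists of a single group and 0 of the opposite one, in all 6 lists, with a difference of at least 2 lists, or with the highest fold of their class. Values of further members were added after seeing them. The genes, lists and rules were chosen with earlier results of these data known. As separate cultures are not stated, p-values reflect only how these samples vary, which may be technical.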

Additional observations from a re-analysis of the deposited data

How the results depend on the processing

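The proteasome genes with a peak per list differed by −8 (overexpression minus vector) and by −11.5 to −3.5 with single lists left out. Their share of genes with a peak differed by −0.113 percentage points (−0.134 to −0.0913), their peaks per list by −10.7 (−16.5 to −2) and their median log2 fold by −0.43 (−0.51 to −0.32). Leaving out single lists gave 3 to 5 genes in more overexpression lists, 11 to 20 in more vector lists, 2 to 4 in no overexpression list and every vector list, and 11 to 17 positions in at least 2 lists. With a fold of at least 4, the log2 fold difference was −0.11, 0 genes were in more overexpression lists and 11 positions recurred. With a score of at least 100, the share differed by −0.164, 1 gene was in more overexpression lists and 1 (PSMC1) in 0 overexpression and 3 vector lists. With the 3105 peaks of highest score kept from each list, 4 genes were in more overexpression and 10 in more vector lists, 0 in 0 overexpression and 3 vector lists, and 5 positions recurred. There the differences were −2.33 genes and −1.67 peaks per list. The share of overexpression lists minus that of vector lists with a PSME3 peak was 0 in the full lists, −0.333 with a fold of at least 4 and 0.667 with equal numbers of peaks. Without vector replicate 2 and overexpression replicate 3 together, the gene difference was −1.5 and that of peaks per list 0, with 4 and 6 genes leaning to overexpression and vector. Over all genes, 48.8% leaned to overexpression and 43.7% to vector without vector replicate 2. Those shares were 43% and 40.5% without overexpression replicate 3, and 44.4% and 20.9% without both. For the other settings of this paragraph, shares over all genes were not computed, so their counts of genes have no background. Causes were not tested, apart from the fewer peaks or lists that these settings hold by construction. Apart from PSME3 and the difference of 0 in peaks per list, no proteasome difference given in this paragraph changed sign between settings. Other sets of genes did reverse. Without vector replicate 2 and overexpression replicate 3, the larger count moved from vector to overexpression for the regulators, the USP genes and all genes. For the regulators, 3 genes leaned to overexpression and 16 to vector in all lists, and 8 and 7 in that setting. Leaving out peaks shared with other genes' spans, chosen after seeing the data as were the wider gene-start window and the counts of gene starts and other gene families without lists, gave 2 and 16 genes leaning to overexpression and vector. Same-numbered lists did not deviate together (correlations 0.000406, −0.0663 and −0.0649 over genes), and lists of unlike number reached 0.0675. These values show no sign of pairing, but they cannot tell whether the replicates were prepared in pairs. With the number as a replicate block, the differences were again −8, −0.113, −10.7 and −0.43, and the exact p of PSMC1 and PSMC4 was 0.25, the smallest 3 pairs allow.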

Other observations

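The COP9 signalosome, a complex built like the proteasome lid that removes the ubiquitin-like protein NEDD8 from cullins, had a peak on 7 of its 10 genes. Of these, 6 leaned to vector lists and COPS4 to neither, while 46.3% of all genes with a peak leaned to vector. Genes with a peak numbered 0, 1 and 0 in overexpression replicates 1, 2 and 3, against 0, 6 and 2 in vector replicates 1, 2 and 3. COPS7B, with the largest difference of the complex, had a peak in no overexpression list and in vector replicates 2 and 3, with folds of 5.59 and 3.24. Without vector replicate 2, 2 of its genes had a peak, COPS4 and COPS7B. None of the 7 genes passed the exact tests over all genes, and no value summed over the complex was tested.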
